A study of Homo sapiens with 27 samples.

Results

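The difference between the responses of SK-OV-3 and PC-3 cells to chronic hypoxia was measured on 12 of the 27 arrays of the study. For each gene it is the change of SK-OV-3 cells from control to chronic hypoxia minus the change of PC-3 cells between the same conditions. SK-OV-3 is an established ovarian cancer cell line and PC-3 an established prostate cancer cell line. SK-OV-3 cells grew in McCoy's medium and PC-3 cells in RPMI, each with 10% fetal bovine serum, so the medium and the cell line cannot be told apart. Control cells of both lines were kept at 21% oxygen for 72 h and chronic hypoxia cells at 1% oxygen for 72 h, with 3 arrays per group that are labelled as biological replicates. No group carried a genetic change made for the study or a drug, and each line stands for its tumour type by itself. The remaining 15 arrays, of cycling hypoxia and of WM793B melanoma cells, did not enter the comparison. The question was which genes answered the same lack of oxygen differently in the 2 lines.

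Cells sense oxygen through hydroxylases that mark HIF alpha subunits for destruction; when oxygen is short the subunits persist, pair with ARNT and switch on genes of glycolysis, blood vessel growth and matrix remodelling. Long hypoxia also reaches pathways that are not run by HIF. The kinases PERK and GCN2 raise translation of the transcription factor ATF4, which drives amino acid uptake and synthesis genes. The transcription factor NRF2 drives detoxifying and antioxidant enzymes, type I interferon signalling drives antiviral genes through the ISGF3 complex, and E2F factors drive genes of DNA replication.

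Expression was read on Human Genome U133 Plus 2.0 arrays as log2 values per probe set, which run from 2.28 to 15.52 over all arrays. An array value is a share of the RNA in the sample, so fewer cells that express a gene and less RNA of it per cell cannot be told apart. Values up to 5 were read as noise level. Correlations between replicate arrays were 0.986 to 0.995, and the median replicate SD of a probe set ran from 0.10 in control PC-3 to 0.18 in chronic SK-OV-3 cells. The labels fitted the markers in part. ERBB2, the receptor gene amplified in SK-OV-3 cells, had a mean level of 12.78 in control and 13.05 in chronic SK-OV-3 cells against 7.07 and 6.85 in PC-3 cells, and the Mullerian lineage factor PAX8 had 9.48 and 9.28 against 4.53 and 4.43. The prostate lineage factor HOXB13 had 11.04 and 8.80 in PC-3 against 4.05 and 3.96 in SK-OV-3 cells. WT1, a factor of serous ovarian tumours, ran against the labels, at the noise level in SK-OV-3 cells (4.00 and 3.11) and at 5.84 and 5.16 in PC-3 cells. The androgen-dependent genes KLK3 and KLK2 were at the noise level in all groups. So were the prostate luminal gene FOLH1 and the ovarian cancer antigen gene MUC16. Of 15 markers of leukocytes, red cells, endothelium and melanocytes, 14 stayed at the noise level in all groups, CD3E, CD14 and PTPRC among them. The exception was PECAM1, with a mean of up to 6.57 in PC-3 cells. The summed marker level was 6.26 to 6.33 on the SK-OV-3 arrays, 6.73 to 7.04 on the control and 7.24 to 7.49 on the chronic PC-3 arrays; its part in the results was not tested.

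The responses of the 2 lines differed for 10102 of 19791 probe sets (limma, adjusted p under 0.05), which is 51.0% of those tested. A positive difference, called higher here, means that the change on the log2 scale was more positive in SK-OV-3 than in PC-3 cells; it can come from a rise in SK-OV-3 cells, from a fall in PC-3 cells or from both. Higher calls numbered 5789 (29.3%) and lower calls 4313 (21.8%). With a difference of at least 2-fold as a second condition, 3334 probe sets were higher (16.8%) and 2151 lower (10.9%), and at 8-fold 204 were higher and 118 lower. Read by the brightest probe set, 33.4% of 10018 genes were called higher and 21.3% lower, and these are the shares against which the gene groups are read. The median difference over these genes was 0.13 on the log2 scale, with quartiles at -0.38 and 0.76, and the median SE was 0.20.

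**Figure D1:**
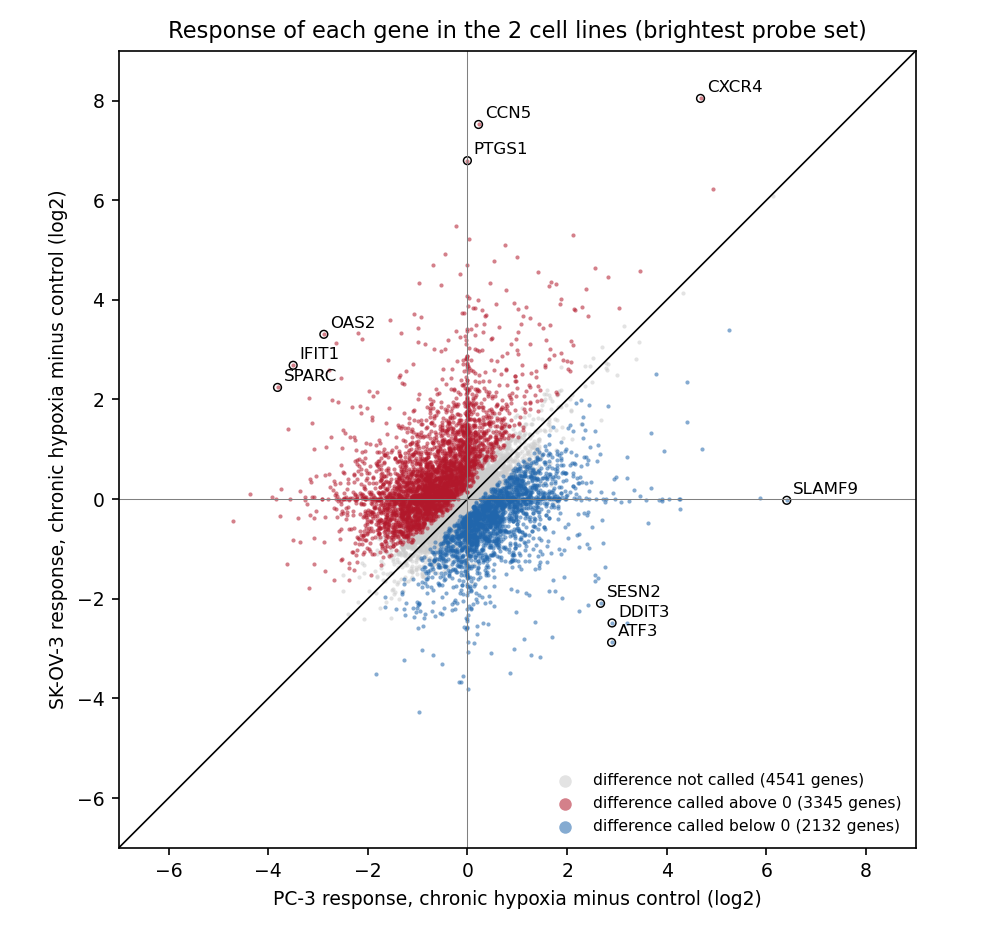
Response of each of 10018 genes, as the mean of 3 chronic hypoxia arrays minus the mean of 3 control arrays (log2), in PC-3 cells (x axis) and SK-OV-3 cells (y axis). Red points were called higher and blue points lower for the difference (limma, adjusted p under 0.05), grey points were not called, and the diagonal marks equal responses; IFIT1, OAS2 and SPARC lie at the upper left and ATF3, DDIT3 and SESN2 at the lower right.

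The calls came from either line. Of the 3334 probe sets higher by at least 2-fold, 1411 had a response past the thresholds of p and fold in PC-3 cells alone and 1045 in SK-OV-3 cells alone. In 125 the 2 lines moved in opposite directions past both thresholds, in 111 they moved the same way by unequal amounts, and in 642 neither response passed by itself. Of the 2151 lower probe sets, 967 passed in PC-3 cells alone, 534 in SK-OV-3 cells alone, 75 in opposite directions, 51 in the same direction and 524 in neither line. A group above the noise level in both lines was seen for 1994 of the 3334 higher and for 1294 of the 2151 lower probe sets. A gene at the noise level in 1 line was read as having no measured size of response there. Where a line was at the noise level under 1 of the 2 conditions, its rise or fall has no exact size either. Besides the genes marked so where they are described, this held, among others, for the control SK-OV-3 cells of IFI44, IFI44L, CDT1, POLA1, C1orf116, FAM43A and CBR3, the control PC-3 cells of HMOX1, VLDLR and JMY, the chronic PC-3 cells of CDT1 and LIG1, and the control cells of both lines of ANGPTL4.

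The 5 highest differences were those of CCN5, PTGS1, OAS2, IFIT1 and SPARC. CCN5, a secreted growth-restraining matricellular protein, had levels of 3.30, 3.91 and 3.94 in control and 11.30, 11.45 and 10.96 in chronic SK-OV-3 cells, while the 6 PC-3 arrays lay between 2.29 and 2.62. Its responses differed by 7.30 ± 0.26 (log2, SE; adjusted p = 1.7e-07), and by 6.24 with all values below 5 set to 5. PTGS1, the constitutive cyclooxygenase that makes prostaglandin H2, stood at 2.69, 3.34 and 2.68 in control and at 9.62, 9.89 and 9.58 in chronic SK-OV-3 cells and at 2.64 or 2.65 on all PC-3 arrays (difference 6.80 ± 0.23, adjusted p = 1.53e-07, and 4.70 with values below 5 set to 5). Both genes were thus at the noise level in control SK-OV-3 cells and in PC-3 cells under both oxygen levels. Neither difference therefore has an exact size. The PTGS1 probe set is of a type that can bind related transcripts. The 3 other PTGS1 probe sets were called higher too, with 4.81 and 5.81 for those not of that type. TGM5, a transglutaminase of the skin barrier, and SCEL, a cornified envelope protein, also rose in SK-OV-3 cells from the noise level, with differences of 5.71 and 5.37, and stayed at the noise level in PC-3 cells. C1orf116 and FAM43A were higher by 5.39 and 5.31.

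The lowest differences mixed genes at the noise level in SK-OV-3 cells with genes that fell there. SLAMF9, a surface receptor of the SLAM family, had 2.63, 3.35 and 3.73 in control and 9.55, 9.59 and 9.80 in chronic PC-3 cells against 2.29 to 2.71 on the SK-OV-3 arrays (difference -6.43 ± 0.34, adjusted p = 9.7e-07, and -4.65 with values below 5 set to 5). SCNN1G, a subunit of the epithelial sodium channel, and TCP11L2 were likewise above the noise level in chronic PC-3 cells alone, with differences of -5.86 and -5.40. For CDCP1, a surface glycoprotein of carcinoma cells, the difference of -6.21 held for 1 probe set, and another probe set of the gene was called in the opposite direction. FBN2, fibrillin 2, was split too, at -4.84 by this rule but at 0.40 by its brightest probe set. The CDCP1 and FBN2 probe sets with these low values were at the noise level in SK-OV-3 cells and in control PC-3 cells. With values below 5 set to 5 their differences were -4.75 and -4.57. Splits between probe sets of a gene occurred in 145 of 4471 genes with several filtered probe sets, and in 37 at 2-fold or more in both directions.

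Interferon-stimulated genes were the group with the widest gap. Of 41 measured members, 39 were called higher (95.1%, against 33.4% of all genes) and 2 lower, and their median difference was 3.56. The SK-OV-3 response was a rise in 34 members and a fall in 0 (median 1.58), and the PC-3 response a fall in 36 and a rise in 2 (median -1.95). In 23 members the 2 lines moved at least 2-fold in opposite directions, which 1.01% of all probe sets did. Both counts stayed at 39 and 2 when any 1 of the 12 arrays was left out.

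The promoters of IFIT1 and IFI44 are shown because interferon-stimulated genes are switched on through the interferon-stimulated response element, searched here as GAAANNGAA on either strand. Capitals mark the matches, 2 in IFIT1 and 1 in IFI44. The windows are the 250 bases before the RefSeq gene start on GRCh38.p14, chr10:89392373-89392622 and chr1:78649539-78649788, both on the plus strand.
IFIT1: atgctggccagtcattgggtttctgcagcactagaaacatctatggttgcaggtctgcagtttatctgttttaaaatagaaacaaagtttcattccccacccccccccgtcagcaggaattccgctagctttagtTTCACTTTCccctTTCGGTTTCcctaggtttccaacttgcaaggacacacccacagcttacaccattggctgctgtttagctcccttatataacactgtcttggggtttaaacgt
IFI44: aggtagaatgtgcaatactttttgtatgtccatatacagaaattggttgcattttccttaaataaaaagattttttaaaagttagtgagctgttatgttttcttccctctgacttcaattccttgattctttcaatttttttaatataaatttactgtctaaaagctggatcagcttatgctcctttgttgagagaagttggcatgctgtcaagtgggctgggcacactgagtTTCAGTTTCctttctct
In windows that also hold 50 bases after the start, 22 of 32 members with a promoter in the table held this motif (68.8%), against 6.21% of the tested genes and 8.29% of all 27305 promoters. Among genes higher by at least 8-fold, 22 of 96 held it (22.9%). List members such as IFIT1 and IFI44 are counted in both shares, so the latter is not a separate result. A match describes letters, not binding.

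OAS2, an enzyme that makes the messenger of RNase L, had 4.90, 5.15 and 5.16 in control and 8.33, 8.29 and 8.51 in chronic SK-OV-3 cells, but 9.35, 9.23 and 9.21 in control and 6.57, 6.05 and 6.53 in chronic PC-3 cells. The groups did not overlap and their order reversed: PC-3 was the higher line at 21% oxygen and SK-OV-3 at 1%. The difference was 6.19 ± 0.20 (adjusted p = 1.19e-07), a ratio of 73.1-fold. IFIT1, which binds foreign RNA, went from 7.54, 7.03 and 7.72 to 10.17, 10.05 and 10.13 in SK-OV-3 cells and from 10.91, 11.00 and 10.72 to 7.52, 6.88 and 7.74 in PC-3 cells (6.18 ± 0.32, adjusted p = 9.29e-07). Chronic PC-3 cells thus reached the levels of control SK-OV-3 cells. MX1, a GTPase that blocks viral replication, had means of 8.05 and 10.65 in SK-OV-3 and of 10.72 and 7.94 in PC-3 cells (5.38 ± 0.45). BST2, which tethers budding virions, was the higher one in SK-OV-3 cells at both oxygen levels, with 8.18 and 10.20 against 7.06 and 3.87 (5.21 ± 0.21); the chronic PC-3 level was below the noise level, so its fall has no exact size.

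This crossing was common in the group. At 21% oxygen 30 of the 41 genes were lower in SK-OV-3 than in PC-3 cells, with a median gap of -1.37 between the lines, and at 1% oxygen 7 were, with a median gap of 1.85. For 23 genes (56.1%) the order of the group means turned, against 10.3% of all genes turning in this direction. The further members included IFI44 (5.78), IFI6 (5.54), IFI44L (5.32), OAS3 (5.15), CMPK2 (5.01), the ubiquitin-like modifier ISG15 (3.96) and the RNA sensor RIGI (3.56). The transcription factors of the pathway differed less, IRF7 by 2.34 and the ISGF3 subunit IRF9 by 1.81. The 2 members called lower were ISG20, an exonuclease that rose more in PC-3 than in SK-OV-3 cells (-0.98 ± 0.12), and the transcription factor IRF1 (-0.78 ± 0.18). SP100, a nuclear body protein outside the list, stood at 6.45 and 8.09 in SK-OV-3 and at 6.99 and then at the noise level in PC-3 cells (5.30). Replicates varied in step within the group. Array 2 was the lowest for 31 of the 41 genes in control SK-OV-3, 30 in chronic SK-OV-3 and 32 in chronic PC-3 cells. Over all 10018 genes it was the lowest for 2834, 3478 and 3547. In control PC-3 cells array 2 was the lowest for 13 of the 41 and array 3 for 19. MHC class I and antigen processing genes did not share the shift, with 4 of 15 higher and 3 lower and a median of -0.16. Of 13 members with a promoter in the table, 6 nevertheless held the GAAANNGAA motif (46.2%, against 6.21% of the tested genes). HLA-B was lower (-0.78) and the immunoproteasome subunit PSMB8 higher (1.29).

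**Figure D2:**
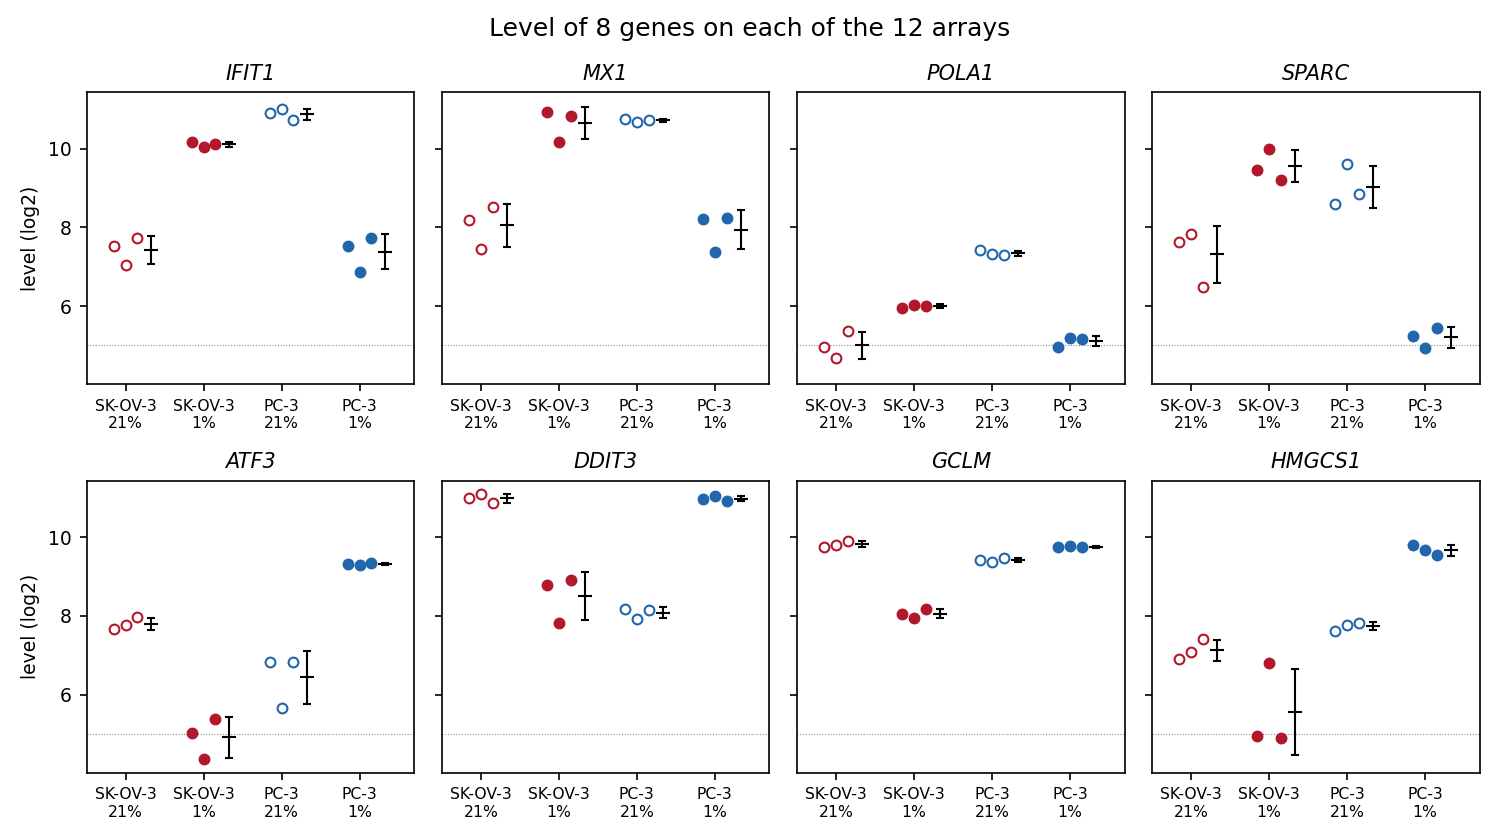
Level (log2) of 8 genes on each of the 12 arrays, with open points for control cells (21% oxygen), filled points for chronic hypoxia (1% oxygen), black bars for mean and SD (n = 3) and a dotted line at the noise level of 5. The order of the group means of the 2 lines is turned by hypoxia for IFIT1, MX1, POLA1, SPARC, ATF3, DDIT3 and GCLM, but not for HMGCS1. GCLM falls in SK-OV-3 cells, and POLA1 falls in PC-3 cells.

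Genes of the ATF4 and amino acid response moved the other way. Of 36 measured members 30 were called lower (83.3%, against 21.3% of all genes) and 1 higher, with a median difference of -2.08. In SK-OV-3 cells 27 fell and 2 rose (median response -1.07), and in PC-3 cells 24 rose and 2 fell (median 1.19). Opposite movement of at least 2-fold was seen in 11 members. ATF4 itself had a difference of -1.74 ± 0.20, with means of 13.25 and 12.85 in SK-OV-3 and of 10.70 and 12.05 in PC-3 cells.

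ATF3 and CHAC1, both among the lowest differences, are shown with their promoters because ATF4 acts through the composite C/EBP-ATF element, searched as TGATGNAA on either strand and printed in capitals. The windows are chr1:212565157-212565406 and chr15:40953221-40953470, both on the plus strand (RefSeq, GRCh38.p14, the 250 bases before the gene start).
ATF3: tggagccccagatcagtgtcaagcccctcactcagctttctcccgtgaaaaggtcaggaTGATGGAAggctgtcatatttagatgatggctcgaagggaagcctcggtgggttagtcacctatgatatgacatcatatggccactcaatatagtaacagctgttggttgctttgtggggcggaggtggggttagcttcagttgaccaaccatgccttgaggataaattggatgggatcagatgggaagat
CHAC1: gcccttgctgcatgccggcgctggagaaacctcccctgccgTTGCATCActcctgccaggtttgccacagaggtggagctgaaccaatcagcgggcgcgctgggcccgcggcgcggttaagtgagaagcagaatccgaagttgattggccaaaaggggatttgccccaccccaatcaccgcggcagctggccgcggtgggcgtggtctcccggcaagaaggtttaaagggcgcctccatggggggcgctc
Among 30 members matched to a promoter, 5 held these letters (16.7%), and of 9 aminoacyl-tRNA synthetases 4 did (44.4%), against 1.83% of the tested genes and 3.67% of all promoters. Among genes lower by at least 8-fold, 5 of 47 held them (10.6%). ATF3 and CHAC1 are counted there too, so this share is not independent of that of the list.

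ATF3, a stress-induced transcriptional repressor, went from 7.67, 7.76 and 7.96 to 5.03, 4.35 and 5.38 in SK-OV-3 cells and from 6.82, 5.67 and 6.82 to 9.32, 9.30 and 9.36 in PC-3 cells. Within each line the groups did not overlap, and the difference was -5.77 ± 0.46 (adjusted p = 9.33e-06), or -5.55 with values below 5 set to 5, since chronic SK-OV-3 cells had a mean at the noise level. DDIT3, the pro-apoptotic factor CHOP, went from 11.01, 11.10 and 10.87 to 8.79, 7.81 and 8.91 in SK-OV-3 cells and from 8.17, 7.93 and 8.15 to 10.97, 11.06 and 10.92 in PC-3 cells (-5.39 ± 0.34, adjusted p = 2.57e-06). The mean of control SK-OV-3 cells and that of chronic PC-3 cells were both 10.99. SESN2, a restraint on mTORC1, was lower by -4.76 and CTH, which makes cysteine, by -4.56. CHAC1, a glutathione-degrading enzyme, was lower by -4.47, and GDF15, a secreted stress hormone, by -4.34. The pseudokinase TRIB3 (-3.49), asparagine synthetase ASNS (-3.35) and the serine synthesis enzyme PHGDH (-2.10) were lower as well.

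Here too the order of the lines turned: at 21% oxygen 4 of the 36 genes were lower in SK-OV-3 than in PC-3 cells, with a median gap of 2.30, and at 1% oxygen 19 were, with a median gap of -0.15. The turn was complete in 15 genes (41.7%, against 6.65% of all genes). Chronic SK-OV-3 array 2 was the lowest of its group for 33 of the 36 genes, against 3478 of all 10018. For ASNS it had 8.71 against 10.18 and 10.27. Without that array 30 members were lower and 2 higher. Control PC-3 array 2 was the lowest of its group for 30 of the 36, against 3031 of all 10018. For ATF3 it had 5.67 against 6.82 on both others, and without it 28 members were lower and 1 higher. SLC7A11, the cystine transporter, was the member called higher (0.64), since it fell less in SK-OV-3 than in PC-3 cells. Aminoacyl-tRNA synthetases, which charge tRNAs with amino acids, had 9 of 12 lower and 1 higher, with a median of -1.09. WARS1 was lower by -2.79 and GARS1 by -2.35, and FARSA was higher by 0.76.

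Chaperones of the endoplasmic reticulum and the unfolded protein response had 22 of 25 members lower and none higher, with a median difference of -1.08. In SK-OV-3 cells 14 fell and 2 rose, and in PC-3 cells 18 rose and 1 fell. HSPA5, the main chaperone BiP, fell from 14.15, 14.16 and 14.09 to 13.03, 13.01 and 13.00 in SK-OV-3 cells and rose from 13.39, 13.34 and 13.42 to 14.26, 14.27 and 14.29 in PC-3 cells. The 3 arrays of each group lay close together and no groups of a line overlapped, and the difference of -2.01 ± 0.06 had an adjusted p of 8.66e-08. The stress sensor ERN1 was lower by -4.21, the co-chaperone DNAJB9 by -2.50 and the transcription factor XBP1 by -1.91. On the ERN1 probe set with the largest difference (-4.40), SK-OV-3 cells and control PC-3 cells were at the noise level. With values below 5 set to 5 the difference of that probe set was -2.20. HYOU1, a chaperone named for its rise under low oxygen, fell in SK-OV-3 cells by 1.83 and had a response of 0.07 in PC-3 cells.

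NRF2 targets had 20 of 27 members lower (74.1%) and 3 higher, with a median of -1.36. The shift lay mostly on the SK-OV-3 side: 22 members fell and 1 rose there (median response -1.25), while in PC-3 cells 9 rose and 10 fell (median -0.06). The lowest values were those of the aldo-keto reductases AKR1C1 and AKR1C2, near-identical copies whose probes may share signal.

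GCLM, the regulatory subunit of glutamate-cysteine ligase in glutathione synthesis, is shown with its promoter because it holds the antioxidant response element, searched as TGACNNNGC on either strand. The window is chr1:93909431-93909680 on the minus strand, with the match in capitals.
GCLM: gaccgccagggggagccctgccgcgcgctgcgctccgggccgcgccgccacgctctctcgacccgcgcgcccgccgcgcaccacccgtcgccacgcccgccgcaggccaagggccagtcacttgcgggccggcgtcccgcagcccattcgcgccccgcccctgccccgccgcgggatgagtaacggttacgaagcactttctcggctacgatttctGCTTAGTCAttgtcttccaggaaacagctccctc
Among 19 members matched to a promoter, 6 held these letters (31.6%), against 15.3% of the tested genes and 13.6% of all promoters. The letters were not particular to this group. ATF4 genes held them in 10 of 30 promoters (33.3%), endoplasmic reticulum chaperones in 7 of 24 (29.2%) and DNA replication genes in 4 of 33 (12.1%). Among genes lower by at least 8-fold, 5 of 47 held them (10.6%), a share below that of the tested genes.

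GCLM stood at 9.76, 9.80 and 9.90 in control and at 8.05, 7.94 and 8.17 in chronic SK-OV-3 cells, and at 9.41, 9.38 and 9.46 and at 9.74, 9.79 and 9.76 in PC-3 cells. All chronic SK-OV-3 arrays were below all others, and the difference was -2.12 ± 0.09 (adjusted p = 4.17e-07). AKR1C1 went from 13.58, 13.47 and 13.37 to 10.19, 10.87 and 10.32 in SK-OV-3 cells and from 7.59, 7.34 and 7.58 to 8.32, 8.41 and 8.55 in PC-3 cells (-3.93 ± 0.23). HMOX1, which breaks down haem, fell by 1.01 in SK-OV-3 and rose by 1.94 in PC-3 cells (-2.95 ± 0.22), and the ferritin light chain FTL fell by 1.25 and rose by 1.02 (-2.27 ± 0.09). The quinone reductase NQO1 fell in both lines, more so in SK-OV-3 cells (-1.80 ± 0.11). CBR3, a carbonyl reductase, was the highest member (1.43).

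DNA replication genes were higher as a group. Of 40 measured members 33 were called higher (82.5%) and none lower, with a median difference of 1.25. Here the PC-3 response made most of the gap: 38 members fell in PC-3 cells and none rose (median -1.23), whereas in SK-OV-3 cells 7 rose and 5 fell (median 0.06).

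POLA1, the catalytic subunit of DNA polymerase alpha, and CDT1, which loads the MCM helicase at origins, are shown because replication genes are regulated through E2F sites, searched as TTTNGCGC on either strand. The windows are chrX:24693668-24693917 and chr16:88803539-88803788, both on the plus strand, with the matches in capitals.
POLA1: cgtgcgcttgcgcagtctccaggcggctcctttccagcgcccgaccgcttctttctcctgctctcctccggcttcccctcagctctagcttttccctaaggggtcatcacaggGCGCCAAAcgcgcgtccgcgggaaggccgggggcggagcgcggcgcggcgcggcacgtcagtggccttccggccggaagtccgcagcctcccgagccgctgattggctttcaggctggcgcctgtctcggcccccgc
CDT1: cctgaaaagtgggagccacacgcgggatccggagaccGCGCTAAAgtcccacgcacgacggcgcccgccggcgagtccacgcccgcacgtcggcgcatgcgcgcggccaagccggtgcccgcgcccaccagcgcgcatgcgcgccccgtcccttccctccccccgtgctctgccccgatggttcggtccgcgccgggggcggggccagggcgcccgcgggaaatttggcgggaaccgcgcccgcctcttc
Among 33 members matched to a promoter, 14 held these letters (42.4%), against 2.96% of the tested genes and 1.83% of all promoters. Mitosis genes held them in 2 of 31 promoters (6.45%).

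POLA1 had 4.95, 4.68 and 5.36 in control and 5.94, 6.04 and 6.0 in chronic SK-OV-3 cells, and 7.42, 7.32 and 7.29 in control and 4.96, 5.19 and 5.17 in chronic PC-3 cells (difference 3.23 ± 0.21, adjusted p = 2.61e-06). Chronic PC-3 arrays overlapped the control SK-OV-3 arrays. The primase PRIM1 was higher by 2.92, the DNA ligase LIG1 by 2.50, CDT1 by 2.29 and the helicase subunit MCM3 by 1.86. MCM10, which assembles the replication fork, fell from 5.67 to 2.59 in PC-3 cells but was below the noise level in both SK-OV-3 groups, so its difference of 2.69 has no measured size on that side. At 21% oxygen 39 of the 40 genes were lower in SK-OV-3 than in PC-3 cells (median gap -1.52), and at 1% oxygen 24 were (median gap -0.28).

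Mitosis, kinetochore and spindle genes were also higher, 36 of 38 with none lower and a median of 1.31, but from the other side. The SK-OV-3 response was a rise in 35 members and a fall in 0 (median 1.14), and the PC-3 response a rise in 4 and a fall in 11 (median -0.08). CDK1, the mitotic kinase, rose from 7.98, 7.77 and 8.09 to 9.37, 9.72 and 9.33 in SK-OV-3 cells and had 10.82, 10.95 and 10.97 and then 10.70, 10.70 and 10.78 in PC-3 cells (1.71 ± 0.16). The kinetochore protein SPC25 was higher by 2.27, the spindle pole protein ASPM by 2.19 and the spindle motor KIF11 by 2.12. All PC-3 arrays stayed above all SK-OV-3 arrays for CDK1, as the group means did for 29 of the 38 genes at 1% oxygen. Replicates varied in step here as well. Control PC-3 array 2 was the lowest of its group for 32 of the 38 genes and chronic SK-OV-3 array 3 for 24. Control SK-OV-3 array 3 was the lowest for none. Over all 10018 genes these arrays were the lowest for 3031, 3595 and 2953. Without any 1 array 34 to 36 members were higher and at most 1 lower, and without either of the first 2 arrays 35 were higher. With all 27 arrays in the fit 30 members were higher and 1 lower. By flow cytometry the study reported no cell cycle differences between hypoxic and control samples, without showing those data. Ribosome biogenesis genes had 15 of 25 members higher and none lower, with a median of 0.68. Of the 25, 11 fell and 1 rose in SK-OV-3 cells and 23 fell in PC-3 cells. The highest were the small-subunit processome proteins UTP20 (1.85) and UTP4 (1.55) and the RNA polymerase I subunit POLR1B (1.42).

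**Figure D3:**
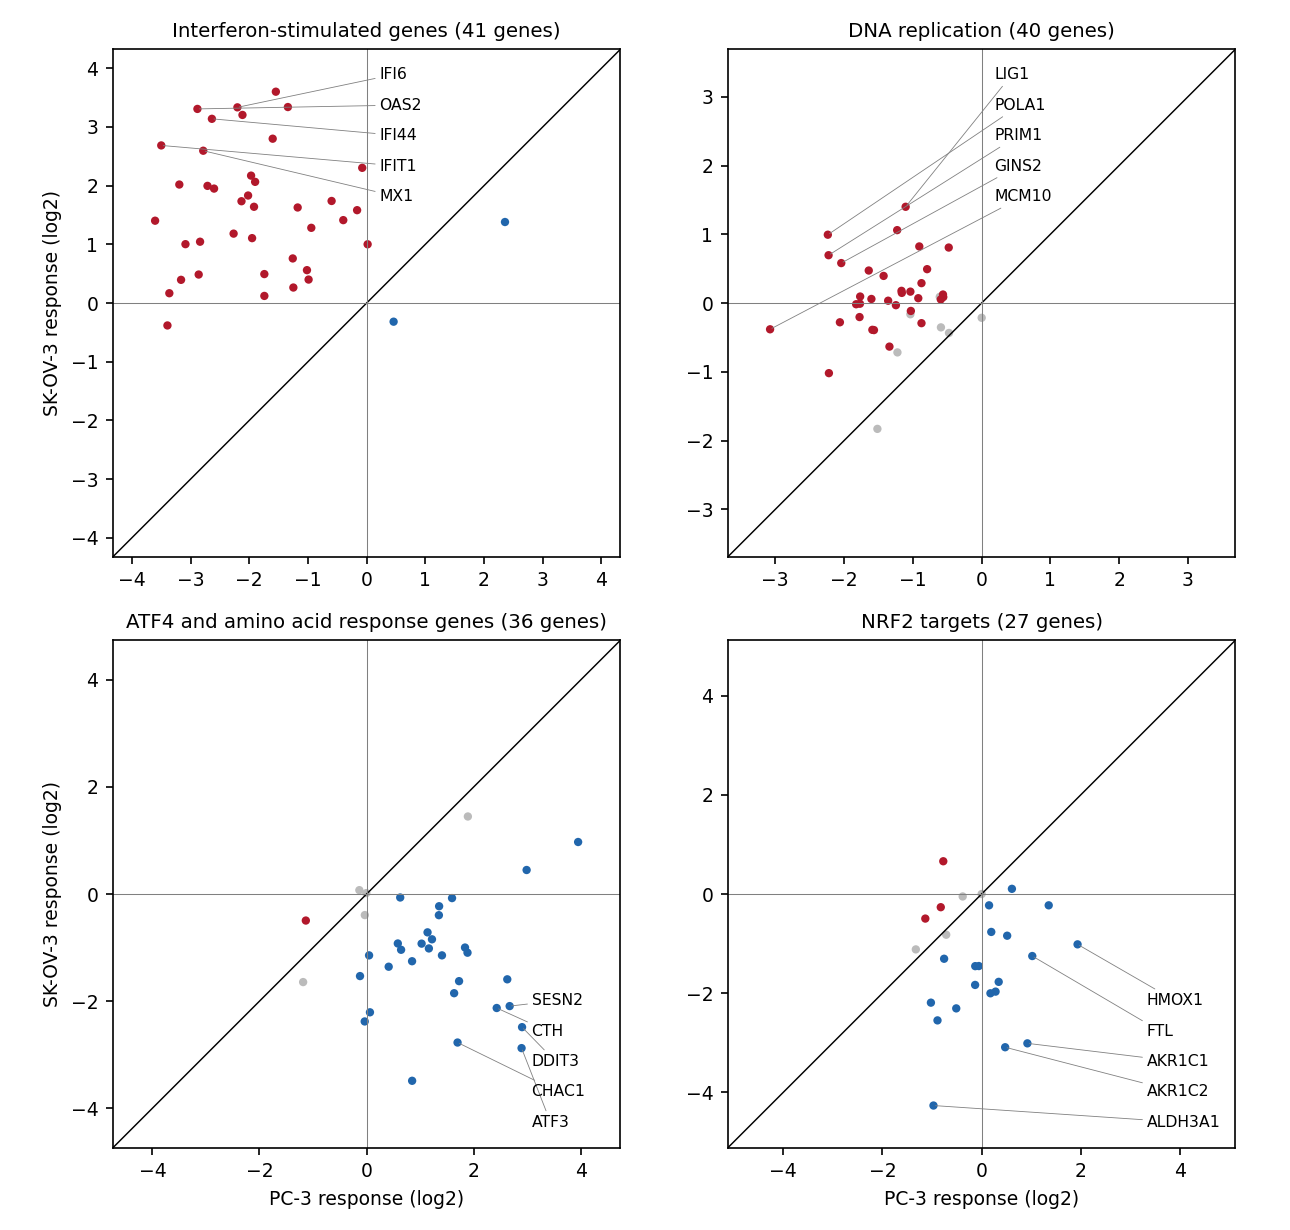
Responses (log2) of the measured members of 4 gene groups in PC-3 (x axis) and SK-OV-3 cells (y axis), with the 5 largest differences named; red, blue and grey points were called higher, lower or not called, and the diagonal marks equal responses. Interferon-stimulated genes fill the upper left quadrant and ATF4 genes the lower right, NRF2 targets lie low on the SK-OV-3 axis, and DNA replication genes lie to the left on the PC-3 axis.

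Direct HIF targets behaved differently from these groups. Of 37 measured members 34 rose in each line and none fell, and the median responses were 2.03 in SK-OV-3 and 1.89 in PC-3 cells. Their median difference was 0.00, with 14 members higher (37.8%), 9 lower (24.3%) and 14 not called, shares close to those of all genes. Members with no called difference included ANGPTL4, a secreted lipase inhibitor (-0.05 ± 0.35), and the glucose transporter SLC2A1 (0.21 ± 0.16). CXCR4, the receptor of the chemokine CXCL12, was at 2.28 on all control arrays of both lines and at 10.38, 10.14 and 10.44 in chronic SK-OV-3 against 6.98, 7.12 and 6.77 in chronic PC-3 cells. Both responses started from the noise level, and they differed by 3.37 ± 0.14 (adjusted p = 2.97e-07). HK2, the hexokinase of rapidly growing cells, rose from 5.41 to 9.72 in SK-OV-3 and from 9.01 to 10.78 in PC-3 cells (2.54 ± 0.20). On the lower side, DDIT4, an mTORC1 inhibitor that is also an ATF4 target, rose from 12.18 to 13.15 in SK-OV-3 and from 8.39 to 12.34 in PC-3 cells (-2.98 ± 0.21). VLDLR, a lipoprotein receptor in both lists, was lower by -2.54, the disulfide oxidase ERO1A by -1.53 and the vessel growth factor VEGFA by -1.10. Glycolysis enzymes had 10 of 14 higher and 1 lower, with a median of 0.52, and respiratory chain genes 6 of 23 higher and 7 lower (median 0.07).

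Among the HIF subunits and their regulators, HIF1A fell from 13.66 to 12.54 in SK-OV-3 and from 12.93 to 11.79 in PC-3 cells, with a difference of 0.02 ± 0.09. EPAS1, which encodes HIF-2 alpha, rose by 1.16 in PC-3 cells and had a response of -0.09 in SK-OV-3 cells (-1.26 ± 0.09), and ARNT was lower by -0.89. The ubiquitin ligase SIAH2, which acts on the hydroxylases, was lower by -1.86. In total, 6 of 9 measured members were lower and 1 higher, with a median of -1.24.

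Genes of cholesterol synthesis, uptake and control had 14 of 24 members lower and 3 higher, with a median of -0.91. HMGCS1, which starts the pathway from acetyl-CoA, had 6.90, 7.07 and 7.40 in control and 4.95, 6.81 and 4.90 in chronic SK-OV-3 cells and 7.63, 7.77 and 7.82 and then 9.80, 9.67 and 9.54 in PC-3 cells (-3.50 ± 0.61, adjusted p = 0.00103). Chronic SK-OV-3 array 2 stood apart from the other two, close to the controls, and without it 18 members of the group were lower. The sterol carrier STARD4 was lower by -2.72, IDI1 by -1.94 and squalene epoxidase SQLE by -1.70, while the sterol exporter ABCA1 was higher by 1.30. Fatty acid and triglyceride synthesis genes were split, 6 of 21 in each direction, with PLIN2, a lipid droplet coat protein, at 2.24 and the acetate-activating enzyme ACSS2 at -2.29.

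Collagens and other matrix proteins had 24 of 37 members higher (64.9%) and 3 lower, with a median of 1.08. Only 18 of the 37 had a group above the noise level in both lines, and with the fit restricted to such probe sets 13 were higher. SPARC, a collagen-binding matricellular protein, had 7.63, 7.83 and 6.48 in control and 9.47, 10.00 and 9.19 in chronic SK-OV-3 cells, and 8.59, 9.61 and 8.86 and then 5.23, 4.93 and 5.45 in PC-3 cells (6.06 ± 0.55, adjusted p = 2.03e-05). It was the member of the group that moved at least 2-fold in opposite directions. COL8A1, a vascular collagen chain, went from 3.94 to 7.59 in SK-OV-3 and from 6.16 to 5.21 in PC-3 cells (4.59 ± 0.48), with control SK-OV-3 cells at the noise level. Thrombospondin 1, THBS1, was higher by 3.69 and the type I collagen chain COL1A1 by 2.45. The TGF-beta-induced adhesion protein TGFBI (4.23) and the proteoglycan lumican, LUM (3.84), were at the noise level in PC-3 cells. The basement membrane protein NID2 (-1.36), tenascin C, TNC (-0.91, at the noise level in SK-OV-3 cells), and fibronectin, FN1 (-0.54), were lower. Among matrix-degrading enzymes and the urokinase system, 10 of 19 were higher and 4 lower. MMP1, interstitial collagenase, rose from 9.42 to 12.86 in SK-OV-3 and fell from 9.69 to 8.69 in PC-3 cells (4.44 ± 0.20). MMP10 (3.72) and MMP2 (3.32) were at the noise level in PC-3 cells.

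**Figure D4:**
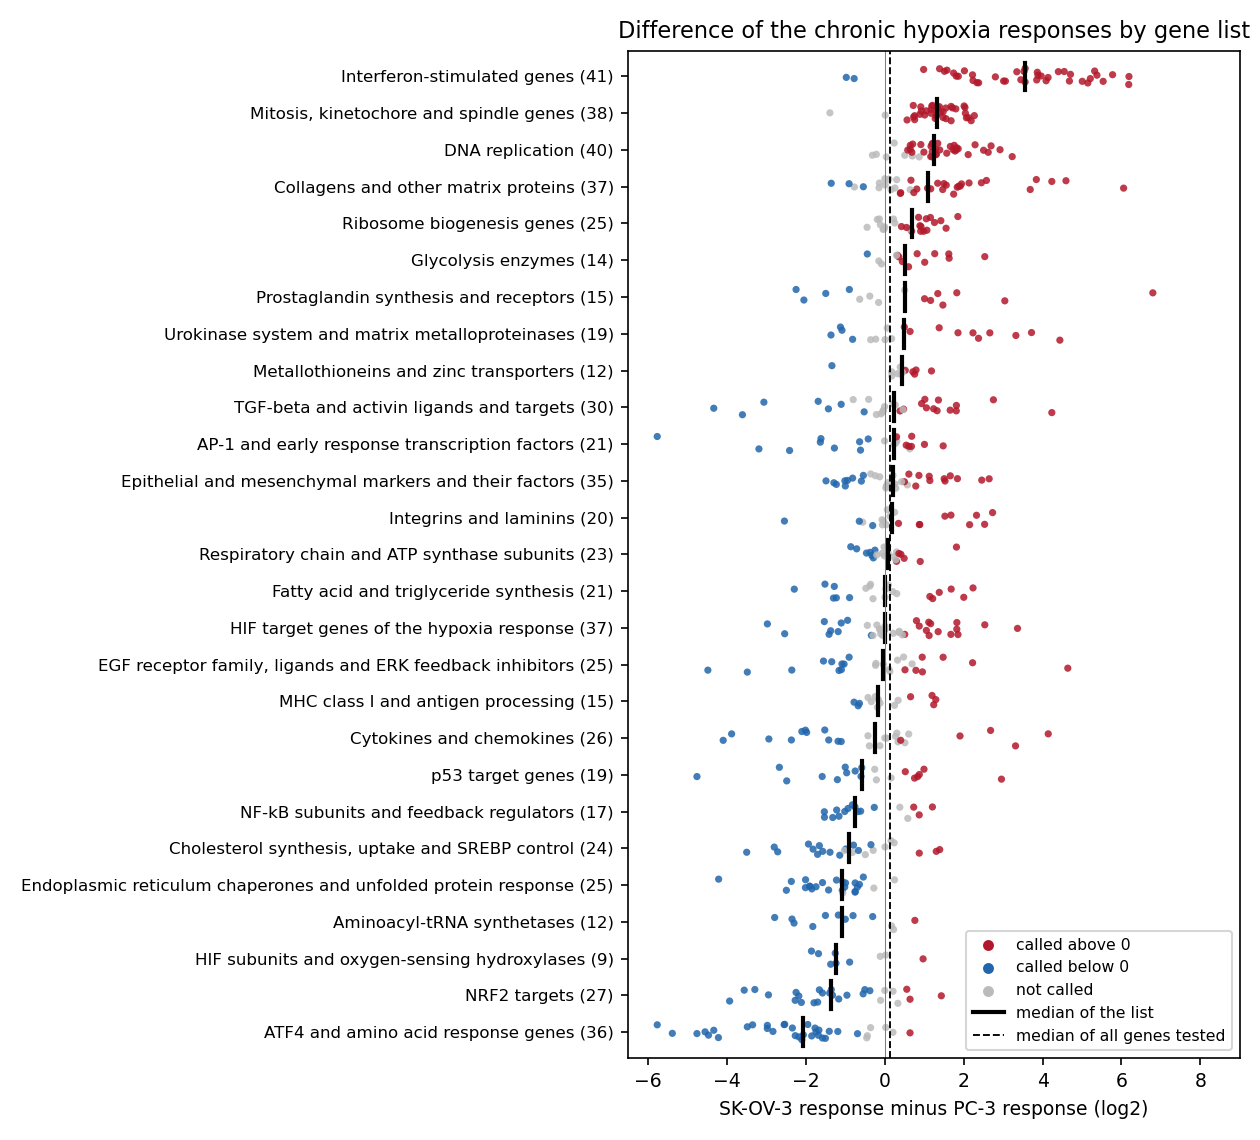
Difference of the responses (SK-OV-3 minus PC-3, log2) of each measured gene in 27 groups, ordered by median, with the number of genes in brackets. Points are genes (red called higher, blue called lower, grey not called), black bars the group medians and the dashed line the median of all genes (0.13); interferon-stimulated genes stand at the top with 3.56 and ATF4 genes at the bottom with -2.08.

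Cytokines and chemokines had 11 of 26 members lower and 5 higher. CXCL3, a neutrophil attractant, fell from 6.16 to 4.63 in SK-OV-3 and rose from 5.90 to 8.47 in PC-3 cells (-4.10 ± 0.22; chronic SK-OV-3 cells were at the noise level), and CXCL2 fell from 10.03 to 8.04 and rose from 7.38 to 9.28 (-3.88 ± 0.31). The study's quantitative RT-PCR on independent material gave CXCL2 above control in chronic cells of both lines. The fall of CXCL2 on the SK-OV-3 arrays was thus not seen there. CXCL8 rose in both lines, from 8.88 to 9.72 and from 9.39 to 12.60 (-2.37 ± 0.37). On the other side, the death ligand TNFSF10 rose from 6.56 to 9.71 in SK-OV-3 and fell from 5.11 to 4.11 in PC-3 cells, there to the noise level (4.14 ± 0.37), and CCL20, an attractant of dendritic cells, was higher by 2.68 from the noise level in PC-3 cells. NF-kB subunits and feedback regulators had 12 of 17 lower and 3 higher, with the inhibitors TNFAIP3 at -1.53 and NFKBIA at -0.93. Without probe sets that can bind several transcripts 9 members were measured, 5 lower and 2 higher. Genes of EGF receptors, ligands and ERK feedback were split, 7 of 25 higher and 10 lower: the ERK inhibitor SPRY1 was higher by 4.64, and the phosphatase DUSP5 (-4.49 ± 0.28) and the ligand EREG (-3.49 ± 0.29, at the noise level in PC-3 cells) were lower. AP-1 and early response factors (7 of 21 higher, 9 lower), p53 targets (6 of 19 higher, 10 lower), TGF-beta ligands and targets (13 of 30 higher, 7 lower) and integrins and laminins (9 of 20 higher, 3 lower) were split too. Among these were the transcription factor KLF4 (-3.19), the cell cycle inhibitor CDKN1A (-2.67), the TGF-beta pseudoreceptor BAMBI (-3.61) and the laminin chain LAMB1 (2.73). Epithelial and mesenchymal markers (12 of 35 higher, 9 lower), metallothioneins and zinc transporters (5 of 12 higher, 1 lower) and prostaglandin genes (7 of 15 higher, 4 lower) completed the set. Of the 15 prostaglandin genes 4 had a group above the noise level in both lines, 1 of them higher and 1 lower. PTGS2, the inducible cyclooxygenase, had a difference of -2.05 with SK-OV-3 cells at the noise level, and PTGS1 one of 6.80 with PC-3 cells at the noise level.

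In all, 200 probe sets moved at least 2-fold in opposite directions, 125 of them up in SK-OV-3 cells and down in PC-3 cells and 75 the other way. They stood for 149 genes, 98 in the first direction and 51 in the second, of which 31 and 27 belonged to the groups above. Ranked by the smaller of the 2 responses, the first 5 of the first kind were OAS2, IFIT1, IFI44, MX1 and GASK1B, a Golgi kinase-like protein that went from 6.78 to 9.22 in SK-OV-3 and from 4.83 to 2.30 in PC-3 cells. Both PC-3 levels of GASK1B were at the noise level, so a fall there has no measured size. With values below 5 set to 5 its difference was 2.46. The other probe set of GASK1B had responses of 2.60 in SK-OV-3 and -0.04 in PC-3 cells. The first 5 of the second kind were ATF3, MXD1, DDIT3, SESN2 and DUSP5. On the SESN2 probe set ranked here, chronic SK-OV-3 cells (4.87) and control PC-3 cells (3.32) were at the noise level. Its difference was -5.04, or -3.06 with values below 5 set to 5. MXD1, which competes with MYC for MAX, had 7.89, 7.66 and 7.67 in control and 5.27, 5.23 and 5.24 in chronic SK-OV-3 cells and 6.16, 6.08 and 6.07 and then 9.28, 9.44 and 9.19 in PC-3 cells. No groups overlapped, and the difference of -5.70 ± 0.11 had the smallest adjusted p of the named genes (1.61e-08). UPP1 (-4.61), which salvages uridine, and JMY (-4.64), an actin nucleator, also fell in SK-OV-3 and rose in PC-3 cells.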

How the data were processed

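Total RNA of the cultures was hybridised to Human Genome U133 Plus 2.0 arrays. The deposited table holds log2 values per probe set that the authors made with GCRMA (named without a version in the submitters' processing notes), which corrects background by probe sequence, normalizes between arrays by quantiles and summarises probes. Such a normalization forces like distributions on all arrays, so changes are relative. Scanner files were not used here, and no column of another sample was present. No batch is given in the labels.

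Of 54675 probe sets, 62 controls were left out, and 19791 stayed in the test because at least 20% of all 27 arrays lay 1.5-fold or further from the median of the probe set. This filter uses the responses themselves, so shares called refer to variable probe sets. Platform annotation gave 1 gene symbol to 17314, several to 811 and none to 1666. A gene is read by its brightest filtered probe set (10018 genes).

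A means model of 4 groups with 3 arrays each was fitted with limma 3.58.1 in R 4.3.3 (tables and plots: Python 3.11.15). Adjusted p is that of the limma interaction contrast, with Benjamini-Hochberg adjustment over 19791 probe sets, two-sided, and called means adjusted p under 0.05. Lists are given by counts and medians with no set test. The fit was tested on simulated data. Deviations of arrays with the same replicate number correlated at -0.12 to 0.16 over all filtered probe sets, and the main fit used no pairing. Replicate effects shared within a single gene group cannot be read from these correlations. Alternatives changed the arrays, filters, normalization, variance model and probe set choice, and left out each array.

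The contrast, gene lists and members were chosen with earlier results of these data known. Named genes are the 15 with the largest difference in each direction among called probe sets with 1 symbol (by the probe set with the largest difference), the 10 called in opposite directions with the largest smaller response, up to 4 members per list and direction, and members whose role the text needed. Promoters are from RefSeq (GRCh38.p14, 250 bases before to 50 after the start) and matched by symbol for 8131 genes. Some cell line markers are not reported here.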

Additional observations from a re-analysis of the deposited data

Results flagged for a closer look

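The effect of chronic hypoxia differed between the 2 cell lines for 10102 of 19791 probe sets, by the test of the difference itself (limma, adjusted p under 0.05), and 11227 had an unadjusted p under 0.05. For 200 probe sets the response of each line was called by itself at 2-fold or more, with opposite signs.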

How the results depend on the processing

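For the 31 probe sets named for their size or opposite movement, the sign and call of the difference held in all 733 values under the alternatives tested. These probe sets were picked for large differences in the same data, so keeping the call was likely beforehand. Whether the 2 lines still moved in opposite directions was not checked for each of them. With only probe sets above 5 in both cell lines, 2002 were higher and 1315 lower by at least 2-fold, since fewer were tested. With values below 5 set to 5, 126 probe sets moved in opposite directions, and of the 5485 calls of at least 2-fold 4355 kept their direction and call, 400 became 0 and 81 reversed; no other alternative reversed one. Without a fold threshold 1872 moved in opposite directions. Leaving out 1 array at a time gave 9273 to 10051 calls, 5270 to 5751 higher and 3905 to 4344 lower, 3184 to 3405 higher and 2037 to 2185 lower at 2-fold, and 189 to 220 in opposite directions. With the replicate number as a block, 5682 probe sets were higher, 4251 lower and 201 opposite, and with the block within each cell line 5521 were higher and 4111 lower; neither pairing reversed a call of at least 2-fold. Normalizing again by quantiles gave 5316 higher and 4837 lower, so that 52.4% of calls were higher in place of 57.3%, and the median difference of all probe sets was 0.01 in place of 0.07. Of 1458 list counts under alternatives, 1396 stayed within 1.5 times. Without probe sets that can bind several transcripts, fewer genes were measured: 30 of 32 interferon-stimulated and 20 of 28 DNA replication genes were higher, and 19 of 23 ATF4 genes, 13 of 17 endoplasmic reticulum chaperones, 5 of 6 aminoacyl-tRNA synthetases and 5 of 9 NF-kB genes lower. In that setting 13 of 25 matrix genes, 8 of 21 TGF-beta genes, 5 of 23 epithelial and mesenchymal markers, 5 of 8 glycolysis enzymes and 1 of 4 metallothionein genes were higher, and 3 of 12 AP-1 factors, 5 of 10 p53 targets, 7 of 19 cytokines and 5 of 22 HIF targets lower. With members above 5 in both lines, 13 of 18 matrix genes, 8 of 17 TGF-beta genes, 5 of 9 matrix-degrading enzymes and 1 of 4 prostaglandin genes were higher, and 6 of 12 cytokines lower. Without the variation filter 14 respiratory chain genes were lower in place of 7. With 3 arrays per group and many genes near background in 1 line, small differences could not be read.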

Other observations

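WM793B melanoma cells did not enter the comparison and grew in another medium, with less serum and with added insulin. They give values for the same lists, read as medians of the chronic hypoxia mean minus the control mean (log2, 3 arrays per group, not tested). Interferon-stimulated genes had a median of -0.40, with 9 of 41 above 0, and DNA replication genes -1.62, with 1 of 40 above 0. ATF4 genes had 0.50, with 25 of 36 above 0, NRF2 targets 0.34, with 20 of 27 above 0, and endoplasmic reticulum chaperones 0.47, with 17 of 25 above 0. Direct HIF targets had 2.17, with 36 of 37 above 0, and all genes tested -0.02. Of the 98 genes that rose in SK-OV-3 and fell in PC-3 cells by at least 2-fold, 22 were above 0 in WM793B cells, with a median of -0.45. Of the 51 genes of the opposite kind, 39 were above 0, with a median of 0.41.

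Cycling hypoxia arrays of the same lines share the control arrays with the comparison, so their values are given side by side only. Interferon-stimulated genes had a median response of 0.64 in SK-OV-3 and -1.17 in PC-3 cells, ATF4 genes -0.26 and 0.75, NRF2 targets -1.12 and -0.01, DNA replication genes 0.03 and -0.68, and mitosis genes 1.51 and 0.01.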
